A study of Arabidopsis thaliana with 8 samples.

Results

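The WRKY family of plant transcription factors was followed in roots of Arabidopsis thaliana seedlings under aluminium (Al) stress. Its members were taken as 60 named loci, from WRKY1 (AT2G04880) to WRKY75 (AT5G13080), chosen by gene identifier and not by any measured value. They are 60 of the 24279 genes that had an entry in at least 1 of the 8 RNA-seq libraries. Of the 60, 59 were listed in at least 1 library and 56 in all 8. WRKY12, a stem gene of pith cell walls, was listed in none, and WRKY42 and WRKY67 were below the low-count filter, which left 57 WRKY genes for testing.

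WRKY factors carry a conserved DNA-binding domain with a zinc finger and bind the W-box, whose core is TTGAC. They are grouped by the number of domains and the type of zinc finger into group I, groups IIa to IIe and group III, and many are known as regulators of immunity, wounding, senescence and nutrient stress. In roots, WRKY46 is known as a repressor of ALMT1, the malate transporter that releases organic acid against Al, while WRKY6, WRKY42, WRKY45 and WRKY75 are known from phosphate nutrition. Group IId proteins bind calmodulin through a domain of their own.

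The wild type was the accession Col and the mutant was cml24-2, a line of CML24 (AT5G37770), which encodes a calmodulin-like protein. Seedlings of each line were 6 d old and grown in nutrient solution at pH 5.0, and their roots were taken after 6 h in solution with 0 or 10 µM AlCl3, from about 500 seedlings. This gave 4 groups with n = 2 libraries each: wild type without Al, wild type with Al, cml24-2 without Al and cml24-2 with Al. No label says that replicates are independent cultures, and the spread behind each p-value may then be technical. The labels also leave out the kind of mutation in cml24-2.

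Library totals were 11743433 to 12188917 expected counts, at which 3 counts in 1 library equal 0.246 to 0.255 CPM, a count divided by the library's total and scaled up. CML24 itself was at 49.5 and 113.8 FPKM in wild type without Al, 48.5 and 43.04 with Al, 207.3 and 129.2 in cml24-2 without Al and 146.1 and 105.8 with Al. Its transcript was therefore not low in the libraries labelled cml24-2, and with the mutation unstated its level is no check of the labels. All 9 root markers examined, among them SHR, SCR and CASP1, were detected, with summed levels of 532 to 1687 FPKM. The summed level of 12 shoot photosynthesis markers was 24.3 to 206 FPKM.

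Because WRKY factors bind the W-box and several of their own genes carry it, the promoters of 8 members are shown, a pair that rose, a pair that fell and 4 with wide differences between libraries. They are the 250 bases before the gene start, from the RefSeq annotation of build TAIR10.1, written 5′ to 3′ on the strand of the gene. Capitals mark the core, as TTGAC on the strand of the gene or as GTCAA where it lies on the opposite strand. WRKY45 and WRKY75, close relatives of group IIc, are shown as a pair that rose with Al.
WRKY45, AT3G01970, chr3:327413-327662, minus strand: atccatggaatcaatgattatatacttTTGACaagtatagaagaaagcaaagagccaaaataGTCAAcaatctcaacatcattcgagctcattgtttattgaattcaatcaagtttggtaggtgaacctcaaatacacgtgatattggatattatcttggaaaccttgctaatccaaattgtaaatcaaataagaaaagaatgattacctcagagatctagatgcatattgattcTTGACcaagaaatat
WRKY75, AT5G13080, chr5:4151202-4151451, minus strand: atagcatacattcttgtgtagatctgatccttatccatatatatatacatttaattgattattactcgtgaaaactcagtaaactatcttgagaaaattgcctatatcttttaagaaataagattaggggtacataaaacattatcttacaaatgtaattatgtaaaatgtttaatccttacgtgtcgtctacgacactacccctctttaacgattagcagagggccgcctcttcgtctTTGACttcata
WRKY11 and WRKY17, paralogs of group IId, are shown as a pair that fell with Al.
WRKY11, AT4G31550, chr4:15291935-15292184, minus strand: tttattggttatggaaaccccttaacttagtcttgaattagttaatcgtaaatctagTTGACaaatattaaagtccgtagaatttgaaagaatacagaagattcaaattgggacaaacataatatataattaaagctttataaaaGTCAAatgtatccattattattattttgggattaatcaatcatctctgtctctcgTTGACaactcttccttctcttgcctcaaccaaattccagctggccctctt
WRKY17, AT2G24570, chr2:10439470-10439719, minus strand: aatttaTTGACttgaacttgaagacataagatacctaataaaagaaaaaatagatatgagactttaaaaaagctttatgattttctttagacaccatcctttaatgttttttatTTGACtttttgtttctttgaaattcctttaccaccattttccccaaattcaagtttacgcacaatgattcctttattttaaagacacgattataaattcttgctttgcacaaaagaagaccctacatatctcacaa
WRKY33, WRKY40, WRKY46 and WRKY53 are shown as members whose levels differed widely between the libraries of the wild type without Al and between the lines. WRKY18 and WRKY48 differed as well, by 2.94-fold and 3.30-fold between these wild-type libraries, and have no TTGAC in their 250 bases. The promoters shown all hold the core and do not stand for the family, where not every member has it.
WRKY33, AT2G38470, chr2:16107985-16108234, plus strand: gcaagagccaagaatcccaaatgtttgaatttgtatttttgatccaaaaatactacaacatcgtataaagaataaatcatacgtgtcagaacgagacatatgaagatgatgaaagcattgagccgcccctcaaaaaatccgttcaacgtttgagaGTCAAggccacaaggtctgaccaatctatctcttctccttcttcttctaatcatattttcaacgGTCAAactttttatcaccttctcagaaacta
WRKY40, AT1G80840, chr1:30383311-30383560, plus strand: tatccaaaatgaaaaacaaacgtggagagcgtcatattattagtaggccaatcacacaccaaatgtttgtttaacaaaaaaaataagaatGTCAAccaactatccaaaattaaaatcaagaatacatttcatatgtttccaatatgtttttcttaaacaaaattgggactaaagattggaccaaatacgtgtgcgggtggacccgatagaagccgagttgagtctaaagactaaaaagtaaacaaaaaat
WRKY46, AT2G46400, chr2:19044956-19045205, minus strand: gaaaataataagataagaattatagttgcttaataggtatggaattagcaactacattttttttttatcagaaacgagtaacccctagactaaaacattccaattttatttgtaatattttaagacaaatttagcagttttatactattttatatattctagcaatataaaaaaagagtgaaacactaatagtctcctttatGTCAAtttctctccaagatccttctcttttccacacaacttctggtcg
WRKY53, AT4G23810, chr4:12393983-12394232, minus strand: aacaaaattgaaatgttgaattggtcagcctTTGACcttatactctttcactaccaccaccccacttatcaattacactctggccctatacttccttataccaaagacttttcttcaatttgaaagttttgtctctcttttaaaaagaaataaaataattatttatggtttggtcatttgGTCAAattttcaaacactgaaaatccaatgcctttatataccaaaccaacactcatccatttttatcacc

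In a window of 300 bases, from 250 before the start to 50 after it, 38 of the 60 members (63.3%) held TTGAC on either strand, against 50.5% of 27443 protein-coding genes. The longer forms TTGACC or TTGACT, each of which contains the core, occurred in 23 members (38.3%) against 32.4%, and at least 2 of them in 11 members (18.3%) against 7.70%. The core occurred in 17 of the 29 members that rose with Al in wild type (58.6%) and in 12 of the 17 that fell (70.6%). CGCGTT, a form of calmodulin-binding CAMTA factor sites and a motif chosen after the values were seen, was in 2 of the 60 windows (3.33%) against 3.40% of all. Other forms of these sites were not searched. These matches describe the letters of the windows and show no binding.

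Levels between genes are compared here as FPKM, which are scaled to gene length. In wild type without Al the family's highest mean levels were those of WRKY65 (group IIe; 118 ± 6.48 FPKM, SD, n = 2) and WRKY11 (group IId; 116 ± 15.02 FPKM), which did not differ beyond their spread. With Al, WRKY33 (group I; 176 ± 6.40 FPKM), a factor required for camalexin synthesis, and WRKY6 (group IIb; 117 ± 0.537 FPKM), known from senescence and phosphate transport, came first and the next was WRKY15 at 76.0 ± 2.60 FPKM. In cml24-2 WRKY33 was highest both without Al (199 ± 59.7 FPKM) and with Al (322 ± 17.96 FPKM). The summed level of all members was 1034 and 1292 FPKM in the wild-type libraries without Al, 1406 and 1407 with Al, 1740 and 1630 in cml24-2 without Al and 1893 and 1840 with Al.

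**Figure D1:**
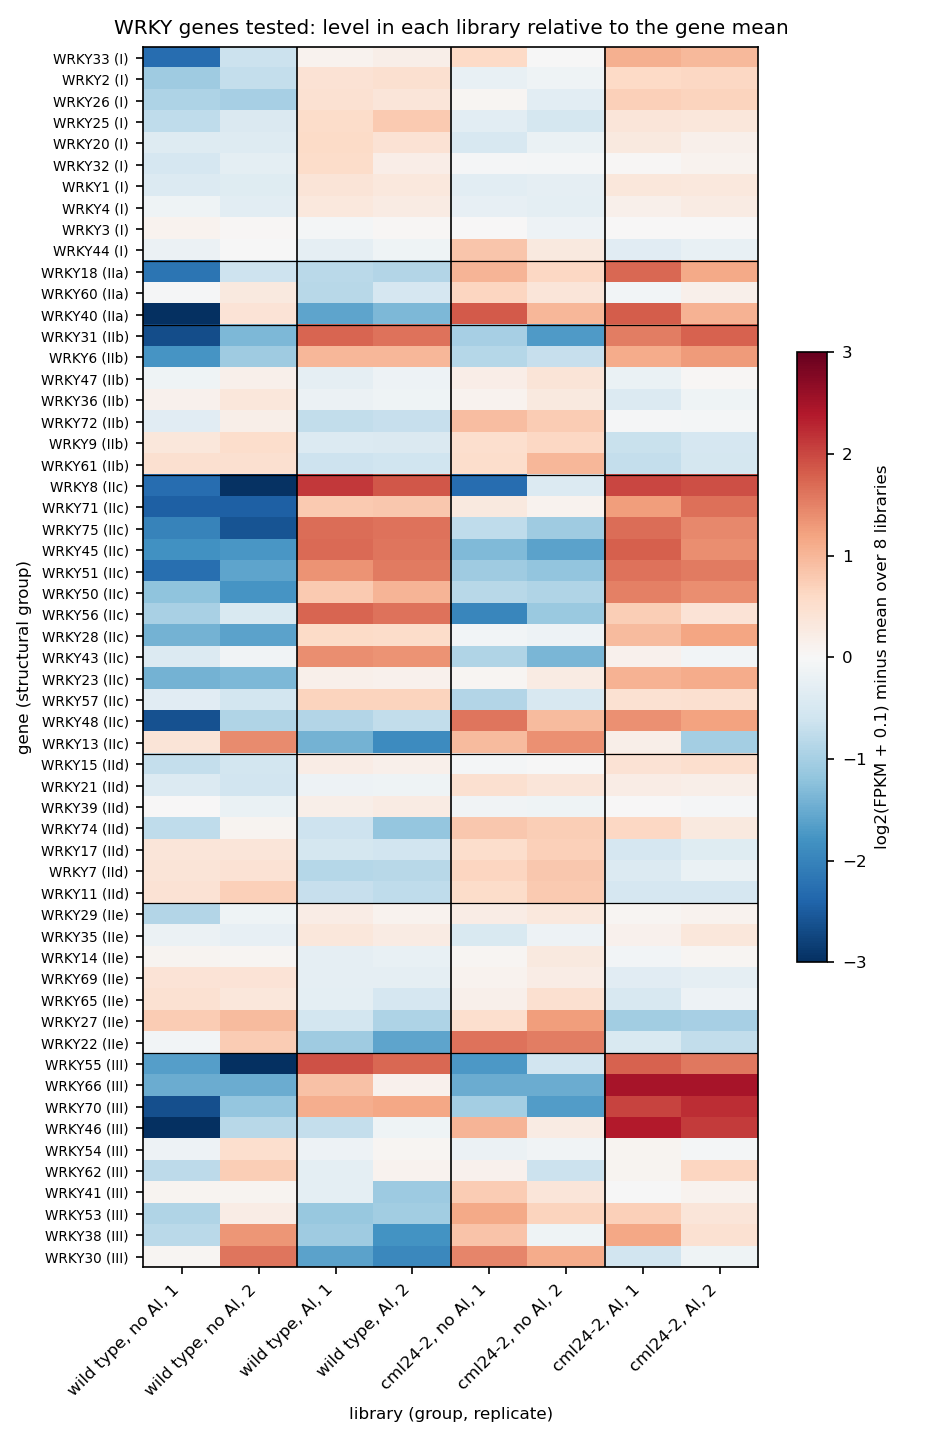
Level of each of the 57 tested WRKY genes (rows, by structural group) in each of the 8 libraries (columns), as log2(FPKM + 0.1) minus the gene's mean over the libraries, with colours saturating at 3 in either direction. Most of group IIc is red with Al in both lines, and replicate 1 of the wild type without Al is the bluest column for WRKY40, WRKY46, WRKY18 and WRKY48.

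The libraries of the wild type without Al differed from each other in many WRKY genes, and this bears on every comparison that uses them. On CPM + 0.5, an offset that shrinks the ratios of low genes, 11 of the 57 members were at least 2-fold higher in replicate 2 and 0 in replicate 1, where 2.38% of all genes tested were at least 2-fold higher in replicate 2. WRKY40, a repressor in immunity and abscisic acid responses, was at 2.8 and 34.8 FPKM in these libraries, and WRKY46 at 0.73 and 7.76 FPKM. The others of the 11 were WRKY38, WRKY48, WRKY33, WRKY18, WRKY30, WRKY70, WRKY62, WRKY53 and WRKY31, from 3.69-fold down to 2.13-fold. On the same scale 0, 1 and 0 of the members differed that far between the libraries of the other groups, the exception being WRKY8 in cml24-2 without Al. Members at low levels can differ further in FPKM without the offset, as WRKY55 did at 0.56 and 0.15 FPKM in wild type without Al.

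A list of 17 genes known to respond within minutes to touch or wounding moved in the same direction between these libraries. Of the 17, 14 were at least 2-fold higher in replicate 2, with a median log2 ratio of 2.18 against 0.25 for the WRKY genes and near 0 for all genes. The libraries of cml24-2 without Al differed the other way, with 6 of the 17 at least 2-fold higher in replicate 1. Their median log2 ratio of replicate 2 to replicate 1 was -0.65 there. In that group 0.888% of all genes tested differed at least 2-fold in either direction. The summed level of the 17 was 414 and 1599 FPKM in the wild-type libraries without Al and 1628 and 1624 with Al. In cml24-2 it was 3212 and 2096 FPKM without Al and 4468 and 4018 with Al. By edgeR at an adjusted p under 0.05, 4 of the 17 rose with Al in wild type and 2 fell. The median log2 fold change was -0.69. With Al in cml24-2 the counts were 2 and 1, and the median was 0.33. The shares over all genes were 25.1% and 25.9% in wild type and 21.3% and 23.3% in cml24-2. No member of the list is a WRKY gene, and its part in the WRKY differences was not tested. For 5 of the 57 members the mean with Al in wild type lay between the values of the wild-type libraries without Al. For 11 of the 57 the mean of cml24-2 without Al did. No share over all genes was computed for either count, so neither is read as a trait of the family.

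**Figure D2:**
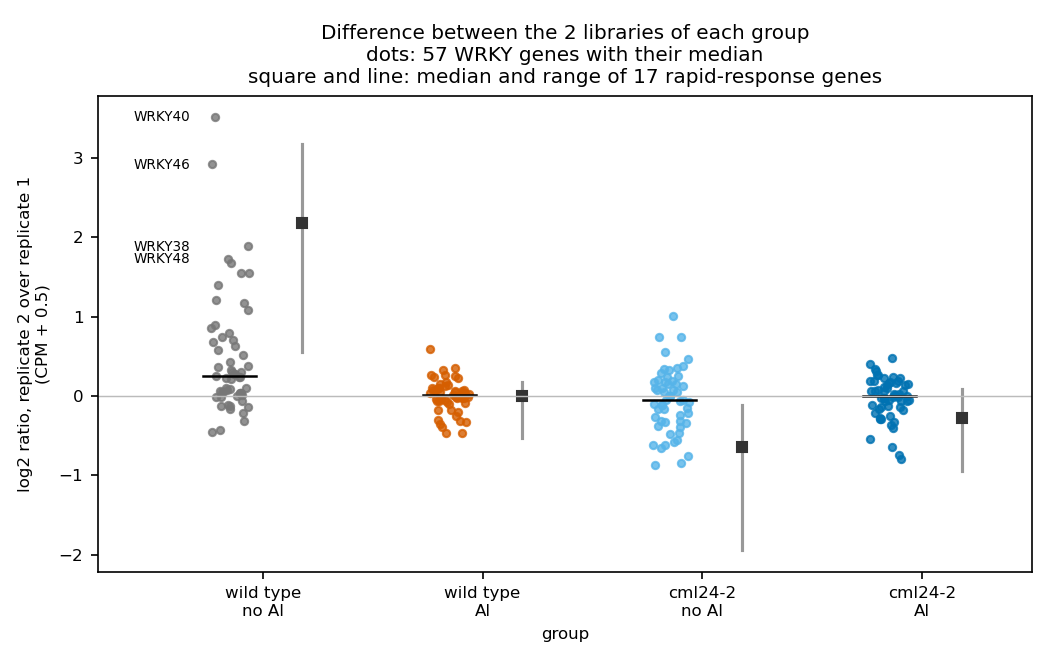
Log2 ratio of replicate 2 to replicate 1 in each of the 4 groups, on CPM + 0.5: dots are the 57 WRKY genes with their median as a bar, and the square with its line is the median and range of the 17 touch and wound response genes. In wild type without Al, 11 WRKY genes lie above 1 and the touch and wound genes have a median of 2.18.

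Al changed most of the family in wild type, and the direction varied with the structural group. By the edgeR quasi-likelihood test with Benjamini-Hochberg adjustment over 20262 genes, 29 of the 57 members rose (50.9%) and 17 fell (29.8%) at an adjusted p under 0.05. Over all genes tested, 25.1% rose and 25.9% fell, and the median log2 fold change was 0.52 for the WRKY genes and near 0 for all genes. Changes of at least 2-fold were seen in 20 members that rose and 8 that fell. Without replicate 1 of the wild type without Al the counts were 27 and 20, and without replicate 2 they were 31 and 12. Of the 46 calls, 34 held under each of 16 alternative settings, and WRKY13 held under the 15 in which it could be tested. All 9 root markers fell with Al as well, from a summed 1448 and 1687 FPKM to 532 and 629 FPKM, and 7 of 12 shoot photosynthesis markers fell, from 82.6 and 126 FPKM to 51.4 and 24.3 FPKM in sum. In whole roots, fewer cells of a type and less RNA per cell cannot be told apart, and the part of these shifts in the WRKY values was not tested.

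Most of group IIc rose: 11 of its 13 tested genes were higher with Al in wild type, 1 fell and 1 was not called, with a median log2 fold change of 2.43. The shares over all genes were 25.1% higher and 25.9% lower. Of the same 13, 11 rose and 1 fell in cml24-2, beside 21.3% and 23.3% of all genes. WRKY45, an activator of the phosphate transporter gene PHT1;1, went from 1.27 and 1.34 FPKM without Al to 15.5 and 14.5 FPKM with Al in wild type, and from 1.83 and 1.47 to 16.6 and 12.5 FPKM in cml24-2. Its log2 fold change was 3.54 (SE 0.21, adjusted p = 2.98e-06) in wild type and 3.11 (SE 0.20, adjusted p = 7.4e-06) in cml24-2. WRKY75, a factor of phosphate starvation, root hairs and leaf senescence, went from 0.83 and 0.52 to 11.7 and 11.4 FPKM in wild type and from 2.08 and 1.67 to 11.7 and 10.07 FPKM in cml24-2. Its log2 fold changes were 4.1 (SE 0.27, adjusted p = 4.98e-06) and 2.51 (SE 0.23, adjusted p = 4.27e-05). All 4 libraries with Al lay far above all 4 without Al for both genes of this pair, whose promoters stand above.

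WRKY50 and WRKY51, which repress jasmonate responses when oleic acid is low, rose together. WRKY50 was at 2.68 and 1.77 FPKM in wild type without Al and 10.98 and 12.8 with Al, and went from 3.47 and 3.32 to 18.2 and 16.8 FPKM in cml24-2, with log2 fold changes of 2.45 (SE 0.20, adjusted p = 1.69e-05) and 2.34 (SE 0.18, adjusted p = 2.1e-05). WRKY51 went from 2.64 and 4.25 to 33.3 and 38.7 FPKM in wild type and from 6.11 and 5.68 to 40.3 and 38.8 FPKM in cml24-2, with log2 fold changes of 3.41 (SE 0.20, adjusted p = 2.53e-06) and 2.72 (SE 0.18, adjusted p = 8.34e-06). For both genes the libraries with and without Al did not overlap in either line.

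WRKY28 and WRKY71 are close relatives known from salicylate synthesis and from shoot branching. WRKY28 was at 3.11 and 2.73 FPKM in wild type without Al, 12.6 and 12.6 with Al, 8.08 and 7.7 in cml24-2 without Al and 16.5 and 19.3 with Al, a log2 rise of 2.14 (SE 0.15, adjusted p = 5.91e-06) in wild type and 1.16 (SE 0.13, adjusted p = 0.00012) in cml24-2. WRKY71 stood at 2 counts over both wild-type libraries without Al and 40 with Al, a ratio of 20.5 with a 95% counting interval of 5.31 to 175. Its levels were 0.07 and 0.07, then 1.5 and 1.54 FPKM in wild type, and 1.04 and 0.9, then 2.11 and 2.8 FPKM in cml24-2, with a log2 fold change there of 1.31 (SE 0.30, adjusted p = 0.00699). That call in cml24-2 was lost without replicate 2 of cml24-2 without Al (adjusted p = 0.0542) or with Al (adjusted p = 0.0652). For both relatives the cml24-2 libraries without Al lay between the wild-type libraries without and with Al.

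WRKY8, known from virus defence and salt stress, was nearly silent without Al: 1 count over both wild-type libraries against 98 with Al, a ratio of 100.4 with a 95% counting interval of 17.6 to 4004. In FPKM it was at 0.06 and 0, then 3.28 and 2.73 in wild type, and at 0.06 and 0.48, then 2.99 and 2.88 in cml24-2, where the log2 fold change was 3.38 (SE 0.51, adjusted p = 0.000738). WRKY43, a regulator of seed oil, was at 2.75 and 3.4, then 9.89 and 9.57 FPKM in wild type (log2 fold change 1.68, SE 0.24, adjusted p = 0.000438), and at 1.92 and 1.37, then 4.03 and 3.49 FPKM in cml24-2 (log2 fold change 1.16, SE 0.31, adjusted p = 0.0137). The latter call was lost without cml24-2 replicate 2 without Al (adjusted p = 0.0918) or replicate 1 with Al (adjusted p = 0.0737). WRKY56, its close relative, was at 5.17 and 7.38, then 34.4 and 32.03 FPKM in wild type (log2 fold change 2.43, SE 0.24, adjusted p = 4.39e-05), and at 2.56 and 4.65, then 17.1 and 13.6 FPKM in cml24-2 (log2 fold change 2.06, SE 0.27, adjusted p = 0.000332). In this pair the wild-type libraries with Al were the highest of all 8.

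WRKY23, known from auxin-dependent root development, was at 2.31 and 2.41, then 7 and 6.88 FPKM in wild type (log2 fold change 1.59, SE 0.14, adjusted p = 2.61e-05), and at 6.59 and 7.51, then 13.1 and 13.8 FPKM in cml24-2. WRKY57, known from drought tolerance and senescence, was at 21.5 and 18.8, then 43.6 and 43.5 FPKM in wild type (log2 fold change 1.13, SE 0.13, adjusted p = 0.000108), and at 14.8 and 19.6, then 37.4 and 38.4 FPKM in cml24-2 (log2 fold change 1.15, SE 0.13, adjusted p = 0.00015). WRKY13, a regulator of stem lignin, was the group's only fall, from 35 counts over both wild-type libraries without Al to 3 with Al, a ratio without to with Al of 11.4 with a 95% counting interval of 3.59 to 57.9. In cml24-2 it went from 1.04 and 1.42 to 0.56 and 0.19 FPKM with a log2 fold change of -1.72 (SE 0.57, adjusted p = 0.0359), a call lost without any of 5 libraries, with adjusted p-values of 0.0604 and 0.0604 without wild type with Al replicates 1 and 2, 0.0696 and 0.163 without cml24-2 without Al replicates 1 and 2, and 0.213 without cml24-2 with Al replicate 2. WRKY48, a repressor of basal defence, was not called with Al in either line, but in wild type it was called higher without replicate 2 without Al (a log2 fold change of 1.89 and an adjusted p = 0.00056).

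**Figure D3:**
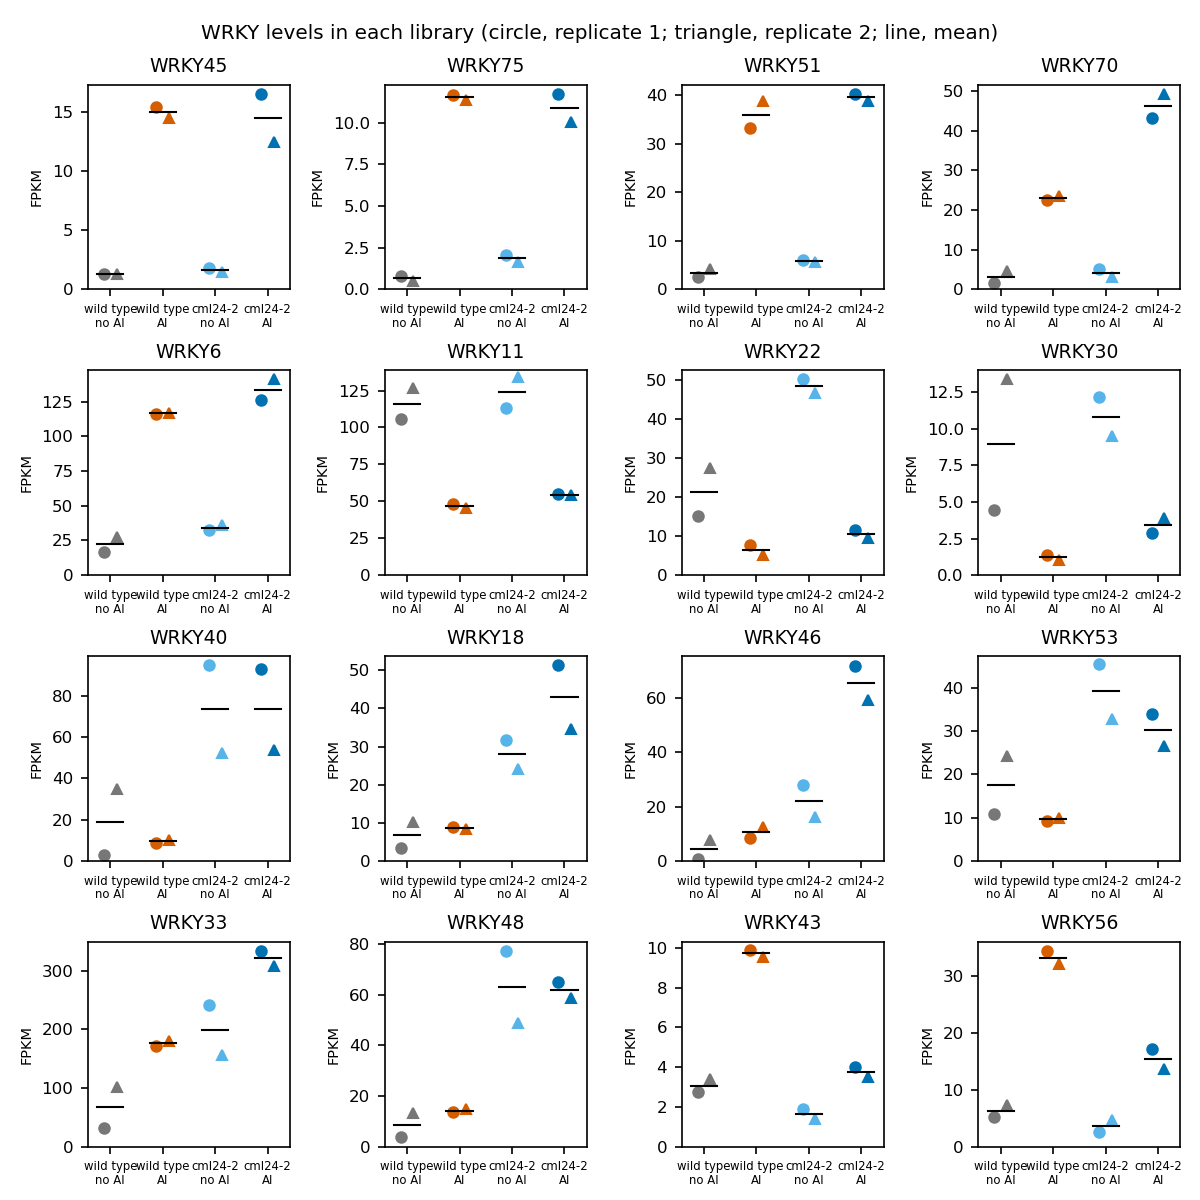
FPKM of 16 WRKY genes in every library, by line and Al treatment; circles are replicate 1, triangles replicate 2 and lines the group means, and each panel has its own axis from 0. WRKY45, WRKY75 and WRKY51 separate by Al, WRKY18, WRKY48 and WRKY53 by line, and the wild-type libraries without Al are far apart for WRKY40.

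In group IIb, 2 of 7 tested genes rose with Al in wild type and 4 fell, beside 25.1% and 25.9% of all genes. The same 2 rose in cml24-2 and the other 5 fell, beside 21.3% and 23.3% of all genes. For the rises these counts are near the shares over all genes. Among the falls, that of WRKY36 in wild type and that of WRKY47 in cml24-2 were each lost in 11 of the 16 alternatives. WRKY6 (AT1G62300), a repressor of the phosphate exporter gene PHO1, was at 17.02 and 27.6, then 116.5 and 117.2 FPKM in wild type (log2 fold change 2.41, SE 0.21, adjusted p = 2.05e-05), and at 32.3 and 35.9, then 125.9 and 141.4 FPKM in cml24-2 (log2 fold change 1.95, SE 0.20, adjusted p = 9.06e-05). WRKY31, its close relative, was at 0.17 and 0.57, then 5.59 and 5.17 FPKM in wild type (log2 fold change 3.81, SE 0.37, adjusted p = 4.27e-05), and at 0.75 and 0.42, then 4.82 and 5.64 FPKM in cml24-2 (log2 fold change 3.07, SE 0.34, adjusted p = 0.000137). WRKY42, which also acts on PHO1, had 1 to 12 counts a library and was not tested. Among the genes that fell, WRKY61 was at 17.8 and 17.7, then 8.19 and 8.37 FPKM in wild type (log2 fold change -1.07, SE 0.16, adjusted p = 0.000479), and at 18.3 and 25.2, then 7.74 and 8.74 FPKM in cml24-2 (log2 fold change -1.42, SE 0.16, adjusted p = 0.000127). WRKY9, known with WRKY33 from root suberin, fell below 2-fold in wild type (log2 fold change -0.83, SE 0.11, adjusted p = 0.000295) and above it in cml24-2, from 40.02 and 43.5 to 17.8 and 19.8 FPKM (log2 fold change -1.17, SE 0.11, adjusted p = 6.33e-05). WRKY72, a gene of basal defence, fell in wild type (log2 fold change -0.63, SE 0.17, adjusted p = 0.0111) and in cml24-2 (log2 fold change -0.92, SE 0.17, adjusted p = 0.00193), but the wild-type call was lost without wild type with Al replicate 1 (adjusted p = 0.0759) or replicate 2 (adjusted p = 0.0511). WRKY47, reported as a regulator of cell wall genes under Al, was at 15.9 and 19.3, then 14.4 and 15.6 FPKM in wild type (log2 fold change -0.20, SE 0.14, adjusted p = 0.274), where it was not called.

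Group I factors have a pair of WRKY domains, and 8 of the 10 rose with Al in wild type while none fell. Over all genes 25.1% rose and 25.9% fell. Of the same 10, 6 rose and 1 fell in cml24-2, beside 21.3% and 23.3% of all genes. None of these changes in cml24-2 reached 2-fold. WRKY33 was at 32.6 and 101.3, then 171.5 and 180.5 FPKM in wild type (log2 fold change 1.41, SE 0.43, adjusted p = 0.0209), and at 241.2 and 156.8, then 334.2 and 308.8 FPKM in cml24-2 (log2 fold change 0.67, SE 0.42, adjusted p = 0.224). Its wild-type call was lost without wild type with Al replicate 1 (adjusted p = 0.069) or replicate 2 (adjusted p = 0.086), and in cml24-2 it passed without wild type without Al replicate 1 (adjusted p = 0.00474) or replicate 2 (adjusted p = 0.00685). WRKY33 overlaps 2 genes on the opposite strand. WRKY25 and WRKY26, which act with WRKY33 in heat tolerance, rose in both lines. WRKY25 was at 25.8 and 32.3, then 63.7 and 75.2 FPKM in wild type (log2 fold change 1.29, SE 0.14, adjusted p = 9.9e-05), and at 35.4 and 30.4, then 55.96 and 55.8 FPKM in cml24-2 (log2 fold change 0.74, SE 0.14, adjusted p = 0.00283). WRKY26 was at 17.1 and 16.3, then 44.9 and 42.2 FPKM in wild type (log2 fold change 1.38, SE 0.13, adjusted p = 3.46e-05), and at 34.3 and 26.4, then 53.5 and 51.9 FPKM in cml24-2. WRKY2, known from zygote polarity, was at 2.08 and 2.66, then 6.05 and 6.27 FPKM in wild type (log2 fold change 1.41, SE 0.15, adjusted p = 6.93e-05). WRKY1, WRKY4, WRKY20 and WRKY32 rose by less than 2-fold, and WRKY3 and WRKY44, the latter known from trichomes and seed coat, were not called in wild type.

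In group III, 3 of 10 tested genes were higher with Al in wild type and 3 lower, near the shares over all genes of 25.1% and 25.9%. WRKY70, which balances salicylate against jasmonate responses, was at 1.62 and 4.66, then 22.4 and 23.6 FPKM in wild type (log2 fold change 2.90, SE 0.35, adjusted p = 0.000141), and at 5.12 and 3.21, then 43.3 and 49.2 FPKM in cml24-2 (log2 fold change 3.45, SE 0.33, adjusted p = 5.95e-05). WRKY54, its partner in senescence and salicylate control, was at 9.35 and 14.95, then 9.45 and 10.9 FPKM in wild type, and 9.19 to 11.02 FPKM in the cml24-2 libraries, and was not called in either line. WRKY55, which lies next to WRKY54 in the genome, was at 0.56 and 0.15, then 7.67 and 6.68 FPKM in wild type (log2 fold change 4.69, SE 0.37, adjusted p = 1.36e-05), and at 0.53 and 1.3, then 6.91 and 6.12 FPKM in cml24-2 (log2 fold change 3.01, SE 0.31, adjusted p = 9.06e-05). Of these neighbours, WRKY55 was low in all 4 libraries without Al and WRKY54 was not. Without wild type without Al replicate 1, WRKY54 was called lower with Al in wild type (a log2 fold change of -0.57 and an adjusted p = 0.0111). WRKY66 had 0 counts in all 4 libraries without Al, against 6 counts with Al in wild type, at least 2.05-fold higher against a floor of 3 counts over the group, and 28 in cml24-2, at least 9.46-fold higher. Its wild-type call was lost without any library other than those of cml24-2 without Al, with adjusted p-values of 0.0565 to 0.133.

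WRKY30 and WRKY38 fell in wild type. WRKY30, an early gene of oxidative stress, was at 4.47 and 13.4, then 1.36 and 1.06 FPKM in wild type (log2 fold change -2.85, SE 0.54, adjusted p = 0.00205), and at 12.2 and 9.48, then 2.87 and 3.93 FPKM in cml24-2 (log2 fold change -1.69, SE 0.45, adjusted p = 0.0139). The call in cml24-2 was lost without replicate 1 without Al (adjusted p = 0.0739) or replicate 1 with Al (adjusted p = 0.0947). WRKY38, a repressor of defence, was at 0.88 and 4.19, then 0.71 and 0.39 FPKM in wild type (log2 fold change -2.16, SE 0.79, adjusted p = 0.0462), and at 2.99 and 1.46, then 3.74 and 2.26 FPKM in cml24-2. Its values with Al lay below both control libraries but close to the lower, and the call was lost without any library other than wild type without Al replicate 1, with an adjusted p of 0.507 without replicate 2 and up to 0.204 without the rest.

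WRKY46 and WRKY53, related group III genes of defence and senescence, had no call with Al in wild type. WRKY46 (AT2G46400) was at 0.73 and 7.76, then 8.4 and 12.6 FPKM in wild type (log2 fold change 1.33, SE 0.66, adjusted p = 0.121), and at 27.9 and 16.3, then 71.8 and 59.1 FPKM in cml24-2 (log2 fold change 1.54, SE 0.52, adjusted p = 0.0384). In wild type it was called higher without replicate 2 without Al (a log2 fold change of 3.89 and an adjusted p = 0.000325). The call in cml24-2 was lost without any of 6 libraries, those other than the wild type without Al, with adjusted p-values from 0.0669 to 0.201. WRKY53 was at 10.9 and 24.2, then 9.25 and 9.91 FPKM in wild type (log2 fold change -0.85, SE 0.34, adjusted p = 0.0665), and was called lower without replicate 1 without Al (a log2 fold change of -1.35 and an adjusted p = 0.000411). It overlaps AT4G23800 on the opposite strand, which stood at 25.7 to 69.2 FPKM. With strand use in the counting not stated, reads of WRKY53 and of this neighbour cannot be told apart where they overlap.

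Groups IId and IIe together held 8 of the 17 falls in wild type. In group IId, 3 of 7 genes rose and 3 fell in wild type, beside 25.1% and 25.9% of all genes. In cml24-2, 1 rose and 3 fell, beside 21.3% and 23.3% of all genes. The wild-type rises of WRKY21 and WRKY39 were lost in 2 and 3 of the 16 alternatives. WRKY11 and WRKY17, paralogs that restrain basal resistance, were among the higher members of the family without Al. WRKY11 went from 105.4 and 126.7 to 48 and 45.6 FPKM in wild type (log2 fold change -1.30, SE 0.13, adjusted p = 4.32e-05) and from 113.04 and 134.3 to 54.8 and 54.3 FPKM in cml24-2 (log2 fold change -1.21, SE 0.13, adjusted p = 9.18e-05). WRKY17 went from 73.1 and 72.9 to 39.5 and 38.2 FPKM in wild type (log2 fold change -0.88, SE 0.10, adjusted p = 9.32e-05) and from 81.6 and 92.5 to 39.6 and 43.6 FPKM in cml24-2 (log2 fold change -1.09, SE 0.10, adjusted p = 4.15e-05). WRKY7, whose product binds calmodulin, went from 25.8 and 26.7 to 10.9 and 10.9 FPKM in wild type (log2 fold change -1.23, SE 0.11, adjusted p = 2.47e-05) and from 31 and 34.4 to 14.9 and 17.1 FPKM in cml24-2 (log2 fold change -1.06, SE 0.11, adjusted p = 7.49e-05). For all 3 genes every library with Al was below every library without Al. WRKY15, a growth and salt stress gene of the same group, went the other way, from 40.4 and 45.2 to 77.9 and 74.2 FPKM in wild type (log2 fold change 0.86, SE 0.10, adjusted p = 0.000103).

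In group IIe, 5 of 7 genes fell and 2 rose in wild type, beside 25.9% and 25.1% of all genes. In cml24-2, 4 fell and 1 rose, beside 23.3% and 21.3% of all genes. The wild-type fall of WRKY14 was lost in 12 of the 16 alternatives. WRKY22, which acts below a MAP kinase cascade in flagellin signalling, went from 15.1 and 27.4 to 7.64 and 5.29 FPKM in wild type (log2 fold change -1.69, SE 0.29, adjusted p = 0.0011) and from 50.3 and 46.6 to 11.7 and 9.54 FPKM in cml24-2 (log2 fold change -2.21, SE 0.27, adjusted p = 0.000215). WRKY29, named with WRKY22 in that pathway, was at 14.1 and 23.7, then 30.2 and 27.8 FPKM in wild type (log2 fold change 0.65, SE 0.21, adjusted p = 0.0262), and at 30.6 and 32.2, then 27.3 and 27.9 FPKM in cml24-2. Its wild-type call was lost without wild type without Al replicate 1 (a log2 fold change of 0.28 and an adjusted p = 0.08) or with Al replicate 1 or 2 (adjusted p = 0.12 and 0.0796). WRKY27, known from bacterial wilt, went from 24.97 and 28.6 to 10.0 and 7.75 FPKM in wild type (log2 fold change -1.56, SE 0.24, adjusted p = 0.000534) and from 21.02 and 35.5 to 7.14 and 7.32 FPKM in cml24-2 (log2 fold change -1.99, SE 0.24, adjusted p = 0.00021). WRKY65 and WRKY69 also fell in both lines, by less than 2-fold, and WRKY65 lost its call in cml24-2 without cml24-2 with Al replicate 1 (adjusted p = 0.0545).

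Group IIa holds the defence repressors WRKY18, WRKY40 and WRKY60, of which 0 rose and 1 fell with Al in wild type and 0 were called in cml24-2. Over all genes 25.1% rose and 25.9% fell in wild type, and 21.3% rose and 23.3% fell in cml24-2. WRKY40 was at 2.8 and 34.8 FPKM in wild type without Al, 8.65 and 10.3 with Al, 94.6 and 52.4 in cml24-2 without Al and 92.99 and 53.7 with Al. In wild type the libraries with Al lay between those without it, and the log2 fold change was -0.97 (SE 0.83, adjusted p = 0.355). Without wild type without Al replicate 1 WRKY40 was called lower (a log2 fold change of -1.90 and an adjusted p = 0.00193), and without replicate 2 it was called higher (a log2 fold change of 1.81 and an adjusted p = 0.0259). WRKY18 was at 3.32 and 10.14, then 8.84 and 8.43 FPKM in wild type and was not called, but it was called higher without replicate 2 without Al (a log2 fold change of 1.46 and an adjusted p = 0.00447). In cml24-2 it passed without wild type without Al replicate 1 (adjusted p = 0.0125) or replicate 2 (adjusted p = 0.0168). WRKY60 was at 10.05 and 12.6, then 5.7 and 7.19 FPKM in wild type (log2 fold change -0.81, SE 0.21, adjusted p = 0.0115), a call lost without replicate 2 without Al (adjusted p = 0.0606) or replicate 1 with Al (adjusted p = 0.0967).

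In cml24-2, Al moved much the same members as in wild type. By the edgeR test 25 of the 57 rose (43.9%) and 15 fell (26.3%), where 21.3% of all genes tested rose and 23.3% fell, and the median log2 fold change was 0.41. Of these calls 24 rises were shared with wild type, which is 82.8% of the wild-type list and 96.0% of the cml24-2 list, against 71.2% and 84.0% for all genes. The 13 shared falls were 76.5% and 86.7% of the lists, against 74.4% and 82.7% for all genes. No member was called in opposite directions. WRKY21, WRKY29, WRKY32, WRKY33 and WRKY39 were called higher in wild type alone, and WRKY46 in cml24-2 alone. WRKY14, WRKY38, WRKY41 and WRKY60 were called lower in wild type alone, and WRKY44 and WRKY47 in cml24-2 alone, which by itself shows no difference between the lines. Apart from WRKY32, each of these calls made in a single line was lost when at least 1 library was left out. Of the 40 calls, 29 held under each of the 16 alternatives, and WRKY66 held under the 15 in which it could be tested.

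**Figure D4:**
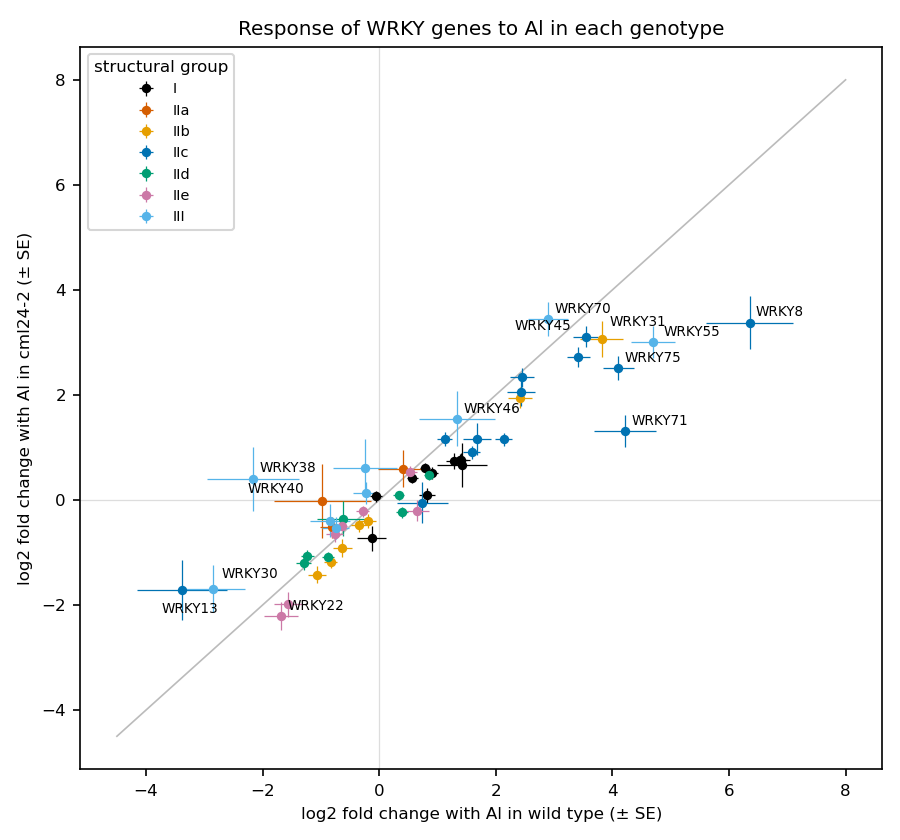
Log2 fold change with Al in wild type (horizontal) and in cml24-2 (vertical) of 56 WRKY genes, with standard errors as bars, structural groups as colours and equal change as the diagonal; WRKY66 is left out because it had 0 counts without Al. WRKY45 and WRKY70 lie near the diagonal, and WRKY8, WRKY71 and WRKY75 lie right of it.

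Without Al, 16 members were higher in cml24-2 than in wild type and 0 were lower. That is 28.1% of the 57, where 7.41% of all genes tested were higher and 5.5% lower. Several of the members with the largest differences are known from defence. WRKY48 was at 3.99 and 13.3 FPKM in wild type and 77.1 and 48.8 in cml24-2, a log2 difference of 2.90 (SE 0.43, adjusted p = 0.00441). WRKY46 was at 0.73 and 7.76 and 27.9 and 16.3 FPKM, a log2 difference of 2.41 (SE 0.63, adjusted p = 0.0377). WRKY18 was at 3.32 and 10.14 and 31.9 and 24.3 FPKM, a log2 difference of 2.09 (SE 0.39, adjusted p = 0.0115). For these genes both cml24-2 libraries exceeded both wild-type libraries, but the wild-type replicate 2 lay closer to them.

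WRKY23 and WRKY28 had wild-type libraries close to each other. WRKY23 was at 2.31 and 2.41 and 6.59 and 7.51 FPKM (log2 difference 1.62, SE 0.14, adjusted p = 0.00042), and WRKY28 at 3.11 and 2.73 and 8.08 and 7.7 FPKM (log2 difference 1.48, SE 0.15, adjusted p = 0.000883). WRKY71 had 2 counts in wild type and 26 in cml24-2, a ratio of 13.1 with a 95% counting interval of 3.27 to 114. WRKY75 was at 0.83 and 0.52 and 2.08 and 1.67 FPKM (log2 difference 1.5, SE 0.36, adjusted p = 0.027), WRKY22 at 15.1 and 27.4 and 50.3 and 46.6 FPKM (log2 difference 1.23, SE 0.25, adjusted p = 0.0164). WRKY33 was at 32.6 and 101.3 and 241.2 and 156.8 FPKM (log2 difference 1.60, SE 0.43, adjusted p = 0.0412), and WRKY53 at 10.9 and 24.2 and 45.5 and 32.7 FPKM (log2 difference 1.19, SE 0.32, adjusted p = 0.0417). The remaining 6, WRKY21, WRKY72, WRKY26, WRKY2, WRKY29 and WRKY15, differed by less than 2-fold. WRKY40 at 2.8 and 34.8 and 94.6 and 52.4 FPKM was not called (log2 difference 2.00, SE 0.76, adjusted p = 0.117).

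These calls depended on single libraries. Without wild type without Al replicate 1 there were 13 higher, losing WRKY2, WRKY29 and WRKY53, and 1 lower, WRKY54. Without replicate 2 there were 23, which lost WRKY75 and added WRKY6, WRKY30, WRKY31, WRKY40, WRKY47, WRKY51, WRKY70 and WRKY74. There were 7 without cml24-2 without Al replicate 1, 9 without its replicate 2, 11 without either library of wild type with Al, and 12 without either library of cml24-2 with Al. Of the 16 calls, 7 held under each of the 16 alternatives. The call of WRKY53 was lost in 12 of them, and those of WRKY29, WRKY33 and WRKY46 in 11 each. The touch and wound list was higher as well, with 5 of 17 genes called, beside 7.41% of all genes. Its median log2 difference was 1.60. Its summed levels were 414 and 1599 FPKM in wild type and 3212 and 2096 FPKM in cml24-2.

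With Al, 8 members were higher in cml24-2 than in wild type and 2 were lower, which is 14.0% and 3.51% of the 57, where 4.63% of all genes tested were higher and 3.39% lower. WRKY46 was at 8.4 and 12.6 FPKM in wild type and 71.8 and 59.1 in cml24-2, a log2 difference of 2.63 (SE 0.56, adjusted p = 0.0259). WRKY18 was at 8.84 and 8.43 and 51.4 and 34.7 FPKM, a log2 difference of 2.28 (SE 0.38, adjusted p = 0.0109). WRKY48 was at 13.5 and 14.9 and 65.1 and 58.5 FPKM, a log2 difference of 2.11 (SE 0.41, adjusted p = 0.0192). In this comparison the wild-type libraries were close to each other for WRKY18 and WRKY48 and 1.51-fold apart for WRKY46. No library of either line overlapped the other line in these 3 genes.

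WRKY53 was at 9.25 and 9.91 FPKM in wild type with Al and 33.9 and 26.4 in cml24-2 (log2 difference 1.64, SE 0.34, adjusted p = 0.023). WRKY23 was at 7 and 6.88 and 13.1 and 13.8 FPKM (log2 difference 0.94, SE 0.12, adjusted p = 0.00449), and WRKY72 at 48.6 and 49.97 and 79.4 and 78.1 FPKM (log2 difference 0.67, SE 0.17, adjusted p = 0.0438). WRKY7 was at 10.9 and 10.9 and 14.9 and 17.1 FPKM (log2 difference 0.53, SE 0.11, adjusted p = 0.0244), and WRKY28 at 12.6 and 12.6 and 16.5 and 19.3 FPKM (log2 difference 0.49, SE 0.12, adjusted p = 0.0409). The lower members were the related WRKY43, at 9.89 and 9.57 and 4.03 and 3.49 FPKM (log2 difference -1.37, SE 0.24, adjusted p = 0.0124), and WRKY56, at 34.4 and 32.03 and 17.1 and 13.6 FPKM (log2 difference -1.12, SE 0.21, adjusted p = 0.0175). WRKY40, at 8.65 and 10.3 and 92.99 and 53.7 FPKM, had the largest estimate but was not called (log2 difference 2.94, SE 0.81, adjusted p = 0.0601).

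None of these 10 calls held under each of the 16 alternatives. Without wild type with Al replicate 1 or replicate 2 there were 0 higher and 0 lower, and without cml24-2 with Al replicate 1 or replicate 2 there were 1 and 2 higher and 0 lower. There were 6 higher without either library of cml24-2 without Al. Leaving out either library of wild type without Al, which lie outside this comparison but enter the shared estimate of the spread, gave 20 higher, among them WRKY40, WRKY33 and WRKY70. With Al, 8 of the 17 touch and wound genes were higher in cml24-2 and 5 of 12 shoot photosynthesis markers were. The share over all genes was 4.63%. Summed shoot marker levels were 51.4 and 24.3 FPKM in wild type and 97.5 and 119 FPKM in cml24-2. The part of both lists in the WRKY differences was not tested.

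**Figure D5:**
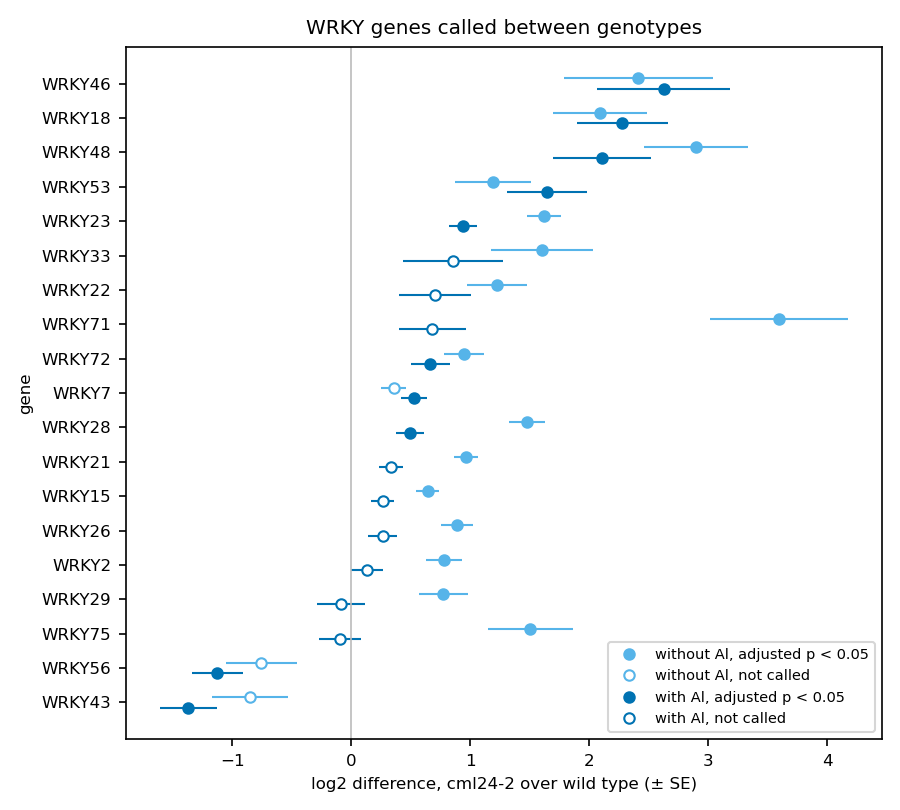
Log2 difference of cml24-2 over wild type, with standard errors, for the 19 WRKY genes called in at least 1 of the comparisons, without Al (light) and with Al (dark); filled points have an adjusted p under 0.05. WRKY46, WRKY18, WRKY48 and WRKY53 are filled and above 1 in both, and WRKY43 and WRKY56 are the genes with called negative values.

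The difference of the Al response between the lines was tested as a genotype by Al interaction, and no member was called, where 0.0987% of all genes tested were called higher and 0.202% lower. By edgeR, 16 members had an unadjusted p under 0.05, 1 higher and 15 lower in cml24-2, and by DESeq2 10 did with 0 called. The share of all genes at that unadjusted threshold was not computed. The balance of higher and lower estimates among such members moved with the wild-type library without Al that was left out. The smallest adjusted p was that of WRKY28, with an interaction of -0.98 (SE 0.19, adjusted p = 0.0833) on the log2 scale. WRKY71 (-2.91 (SE 0.68, adjusted p = 0.133)) and WRKY75 (-1.60 (SE 0.40, adjusted p = 0.152)) had negative estimates as well, and WRKY38 (2.57 (SE 1.01, adjusted p = 0.348)) was the positive member of the 16. Without wild type without Al replicate 1, WRKY30 and WRKY38 were called higher, and without replicate 2, WRKY6, WRKY29, WRKY33 and WRKY48 were called lower. The interaction shares all control libraries with the comparison of the lines without Al, so the estimates are not independent of it.

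Genes that act with WRKY factors were read from lists of MAP kinase cascade members, VQ-motif proteins and reported WRKY targets. MAP kinases phosphorylate group I factors such as WRKY33. With Al in wild type 5 of 10 cascade genes rose and 0 fell, beside the 25.1% and 25.9% of all genes. MPK11 was at 0.26 and 0.35, then 2.91 and 3.77 FPKM (log2 fold change 3.44, SE 0.43, adjusted p = 0.000172), and MPK6, a kinase of WRKY33, at 64.9 and 60.4, then 91.01 and 92.5 FPKM (log2 fold change 0.58, SE 0.09, adjusted p = 0.000514). MPK3, which acts with MPK6, was at 37.6 and 79.95 FPKM in wild type without Al and 129.7 and 107.7 in cml24-2 (log2 difference 1.05, SE 0.29, adjusted p = 0.0444), and was among 3 cascade genes higher there without Al. Of all genes 7.41% were higher in cml24-2 without Al. In cml24-2, 4 of the 10 rose with Al and 0 fell, beside 21.3% and 23.3% of all genes. With Al 2 were higher than in wild type, beside 4.63% of all genes.

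VQ-motif proteins are partners that bind WRKY domains. Of 20 tested, 7 rose and 2 fell with Al in wild type, where 25.1% of all genes rose and 25.9% fell, and 7 rose and 3 fell in cml24-2, where the shares were 21.3% and 23.3%. JAV1, which restrains jasmonate defence, was at 8.96 and 12.3, then 21.5 and 20.8 FPKM in wild type (log2 fold change 1.02, SE 0.17, adjusted p = 0.000892). Without Al 10 of the 20 were higher in cml24-2 and 0 lower, beside 7.41% and 5.5% of all genes, and with Al 8 were higher and 0 lower, beside 4.63% and 3.39%. MKS1, which links MPK4 to WRKY33, was at 9.5 and 20.6 FPKM in wild type and 37.1 and 28.5 in cml24-2 without Al (log2 difference 1.16, SE 0.30, adjusted p = 0.0348). SIB1, a partner of WRKY33 in plastid and nucleus, rose with Al in cml24-2 from 2.2 and 2.09 to 7.47 and 8.02 FPKM (log2 fold change 1.82, SE 0.47, adjusted p = 0.0122).

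Of 15 reported WRKY targets tested, 6 rose and 2 fell with Al in wild type, beside 25.1% and 25.9% of all genes, and 8 rose and 3 fell in cml24-2, beside 21.3% and 23.3%. ALMT1, the target of WRKY46, was at 0.42 and 0.54, then 27.2 and 23.5 FPKM in wild type (log2 fold change 5.74, SE 0.27, adjusted p = 8.47e-07), and at 2.93 and 1.6, then 27.5 and 24.6 FPKM in cml24-2 (log2 fold change 3.5, SE 0.22, adjusted p = 5.47e-06). Without Al ALMT1 was higher in cml24-2 (log2 difference 2.27, SE 0.35, adjusted p = 0.00526), as was its reported repressor WRKY46. That WRKY46 call was lost in 11 of the 16 alternatives, DESeq2 among them (adjusted p = 0.189). PHT1;1, the target of WRKY45, fell from 656.3 and 934.1 to 179.3 and 185.1 FPKM in wild type (log2 fold change -2.10, SE 0.20, adjusted p = 4.17e-05) while WRKY45 rose. PHO1, the target of WRKY6, fell from 180.3 and 145.8 to 129 and 127.2 FPKM (log2 fold change -0.31, SE 0.11, adjusted p = 0.0333). PAD3, the camalexin enzyme below WRKY33, rose from 4.78 and 4.63 to 14.8 and 13.9 FPKM (log2 fold change 1.64, SE 0.12, adjusted p = 8.62e-06). Without Al 3 of the targets were higher in cml24-2 and with Al 3 were, beside 7.41% and 4.63% of all genes. In either case 0 were lower. No gene of the 3 lists was called for the interaction.

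The counting could blur some members. Reads shared with another gene, seen where an expected count was not whole, occurred for WRKY40 in 6 libraries and for WRKY11 and WRKY17 in 2 each. In TAIR10.1, 11 members overlap a gene on the opposite strand, among them WRKY33, WRKY40, WRKY53 and WRKY61. Strand use is not stated, so reads in these overlaps cannot be assigned to either gene. WRKY2, at 2.08 to 6.87 FPKM, lay below its neighbour AT5G56280, at 28.09 to 33.98 FPKM, in all 8 libraries. WRKY41 was below AT4G11080 (5.79 to 15.93 FPKM) in 7 libraries and WRKY53 below AT4G23800 in 6. WRKY40 was below AT1G80850 (5.05 to 7.41 FPKM) in 1, replicate 1 of wild type without Al. The other overlapping members were above their neighbours in every library, as was WRKY33 over AT2G38480 at 4.39 to 9.73 FPKM.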

How the data were processed

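RNA-seq of roots was made on the BGISEQ-500 platform, per the labels' protocols. The deposited files give per gene an expected count, a listed length and an FPKM. Per the submitters' processing notes, RSEM gave the authors these expected counts, estimated reads per gene that are not scaled. The authors' FPKM divide them by length and library size. The RSEM version, strand use, aligner and genome build were not given in the sources used here. Genes not listed in a library (FPKM under 0.01) were taken as 0. Expected counts were whole for 89.1 to 89.5% of genes per library.

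Here expected counts were rounded. In R 4.3.3, edgeR 4.0.16 fitted quasi-likelihood models with 1 mean for each group to all 8 libraries together, which left 4 residual degrees of freedom. Genes passed filterByExpr, normalization was TMM with factors of 0.984 to 1.03, the common biological coefficient of variation was 11%, and contrasts were tested by F tests. P-values were adjusted by Benjamini-Hochberg over 20262 genes, a call being an adjusted p under 0.05. Standard errors (SE) derive from the F statistic. For a gene with 1 to 3 counts in a group the ratio has an exact 95% counting interval, and for 0 counts a bound from a floor of 3 counts over the group. Intervals and floors cover counting error only. The procedure was tested on simulated data.

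Alternatives were DESeq2 1.42.0, RLE factors, no filter, a filter of 1 CPM in 4 libraries, the groups compared alone, a replicate block, limma 3.58.1 on log2(FPKM + 1) or log2(FPKM + 0.1) of genes with at least 1 FPKM in 2 libraries, and each library left out. Where this leaves a single library in a group, it is assumed to vary like the other groups. The members, gene lists and tests were chosen with earlier results of these data known. Values in every library are given for members changed at least 2-fold with Al at a mean of at least 1 FPKM, for members called between lines (at most 10 a comparison) and for fixed sets of paralogs. Promoters come from RefSeq TAIR10.1 by locus tag, which matched 60 of 60 members. Proteins were not used here.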

Additional observations from a re-analysis of the deposited data

How the results depend on the processing

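The Al calls kept their direction and stayed within 1.5 times the reported counts in all 16 alternatives. With each library left out in turn, 24 to 31 members rose and 12 to 20 fell in wild type, and 22 to 27 rose and 10 to 17 fell in cml24-2. The comparisons of the lines were less stable. Without Al, the 16 members higher in cml24-2 became 7 when the groups compared were fitted alone and 7 to 23 with libraries left out, and the 0 lower became 1 by limma with either pseudocount and 0 to 1 with libraries left out. With Al, the 8 higher became 22 in the groups compared alone, 2 by limma on log2(FPKM + 0.1) and 0 to 20 with libraries left out, and the 2 lower became 3 in the groups compared alone, 1 by DESeq2, 1 by that limma fit and 0 to 2 with libraries left out. For the interaction, limma on log2(FPKM + 0.1) called 1 member lower, WRKY71, and leaving out libraries gave 0 to 2 higher and 0 to 4 lower. WRKY40 was the member whose direction reversed with a call, with log2 fold changes with Al in wild type of 1.81 without wild type without Al replicate 2 and -1.90 without replicate 1. The causes were not tested. Leaving out libraries also leaves fewer degrees of freedom.

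Whether replicate numbers pair the samples was not settled. Replicate differences of 2 groups correlated over genes at −0.168 to 0.144, highest between cml24-2 without and with Al. With a single such difference per group, these values cannot exclude a pairing. With a replicate block, 29 members rose and 16 fell with Al in wild type, 24 and 14 in cml24-2, 15 were higher and 0 lower in cml24-2 without Al, 6 and 2 with Al, and 0 were called for the interaction. With 2 libraries a group and 3 counts at 0.246 to 0.255 CPM, changes in WRKY42 and WRKY67, and in WRKY66 in wild type, were hardly measurable at this depth. WRKY62, with 28 to 43 counts a group, was tested and not called. Its wild-type libraries without Al stood at 0.69 and 2.15 FPKM.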
